A study of Mus musculus with 8 samples.

Results

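Planar cell polarity (PCP) is the alignment of epithelial cells along an axis within the plane of their sheet. Its core proteins are membrane complexes that sort to opposite faces of each cell: Vangl with Prickle on one face, Frizzled with Dishevelled on the other, and the large Celsr cadherins bridging the junction between neighbours. Genetic work in mice has linked Bardet-Biedl syndrome (BBS) proteins to this pathway, since loss of BBS genes gives misoriented stereociliary bundles in the cochlea and interacts with Vangl2. The retinal pigment epithelium (RPE) is a single layer of polarised, pigmented cells whose regular packing depends on intact lateral junctions.

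The 10 genes described here were taken by symbol from a list of core PCP genes: Vangl1, Vangl2, Celsr1, Celsr2, Celsr3, Prickle1, Prickle2, Ptk7, Ror2 and Scrib. They are 10 of the 31053 gene identifiers in the deposited counts, and the rule that picked them uses gene names and no measured value. The RNA came from RPE eyecups, the pigmented rear of the eye with the choroid and sclera still attached, of untreated C57/Bl6 mice at postnatal day 11. 4 libraries were from wild type Bbs8+/+ mice and 4 from Bbs8-/- mice, in which Bbs8 (gene symbol Ttc8), a subunit of the ciliary BBSome coat complex, was ablated in every tissue and not in the RPE alone. QuantSeq 3′ mRNA sequencing was used, which reads each polyadenylated transcript near its 3′ end, so counts were not divided by transcript length. Levels are given as CPM, a gene's reads relative to all gene-assigned reads of its library after TMM scaling. On this scale each transcript end counts once whatever the length of the gene.

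Each library held between 1636725 and 2884983 reads assigned to genes, and a count of 3 in one library corresponded to 1.04 to 1.83 CPM. Ttc8 was 14.7, 19.7, 18.2 and 21.7 CPM in Bbs8+/+ replicates 1 to 4 and 9.72, 3.66, 2.30 and 4.21 CPM in Bbs8-/- replicates 1 to 4, with no overlap (log2 fold change -1.95, SE 0.319, edgeR quasi-likelihood adjusted p 2.75e-06). RPE markers, 10 of 10 of them tested, summed to 17339–18389 CPM in Bbs8+/+ and 18829–19169 CPM in Bbs8-/- libraries, so the labelled tissue was present in every library. Of these markers, 7 had fitted values above 0 and 3 below, and 1 of 10, Otx2, passed FDR 0.05. Ttr had means of 10955 and 11676 CPM in Bbs8+/+ and Bbs8-/-, and Rpe65 of 2002 and 1827 CPM. Summed lists for other cell types also moved with genotype. Lens markers rose from 55.1–67.3 to 338–372 CPM with 7 of 12 past FDR 0.05, and surface epithelium markers summed to 15.7–22.0 CPM in Bbs8+/+ and 0.468–1.38 CPM in Bbs8-/- libraries. Only 3 of those 8 could be tested, and these entered the test through Bbs8+/+ libraries alone, so their calls are not used as support. Fibroblast and sclera markers summed to 34274–36006 CPM against 26893–28065 CPM (3 of 8 down-regulated), melanocyte and pigment cell markers to 13663–14360 against 11339–11893 CPM (5 of 6 down-regulated), pericyte and smooth muscle markers to 1216–1254 against 1048–1127 CPM (1 of 6 down-regulated) and macrophage markers to 350.4–384 against 420.5–463 CPM (1 of 6 up-regulated). Photoreceptor markers summed to 465–516 against 355–428 CPM (2 of 10 down-regulated) and myelinating glia markers to 313–346 against 218–266.7 CPM (2 of 6 down-regulated). Endothelial, retinal neuron and skeletal muscle sums overlapped between genotypes. Every library held reads of both Xist and Y-linked genes, the Y-linked sum being 59.1–65.0 CPM in Bbs8+/+ and 108–119.7 CPM in Bbs8-/- libraries. By the study's methods every replicate was a single animal, whereas Xist and Y-linked reads in the same library are not what RNA of 1 animal of either sex would give. Each SD is therefore given as a spread between libraries. In such bulk RNA, fewer cells of a type and less RNA per cell cannot be told apart.

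No core PCP gene passed the test for mis-regulation in Bbs8-/- eyecups at P11. Of the 10 genes, 9 had at least 1 CPM in at least 4 libraries and were tested, and 0 of the 9 passed FDR 0.05, where 309 of all 13813 genes tested (2.24%) did, 1.10% being higher and 1.14% lower in Bbs8-/-. None of the 9 reached an unadjusted p of 0.05 either (all genes, 13.0%), none was called by DESeq2, and in none did the libraries of the genotypes lie apart (all genes, 7.38%). DESeq2 gave Celsr1 no adjusted p, so that gene was not judged there. Fitted changes were above 0 for 3 genes and below 0 for 6, and their median log2 fold change was -0.08 beside -0.0041 over all genes. Summed over the 10 genes, PCP core transcripts amounted to 207 ± 7.49 CPM in Bbs8+/+ and 211 ± 8.24 CPM in Bbs8-/- libraries (SD, n = 4 each). A p above the threshold does not show that a gene did not differ, so each gene is given below with the 95% interval of its fold change. The width of these intervals rests mostly on dispersion pooled over all genes, and only in part on the gene's own libraries.

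**Figure D1:**
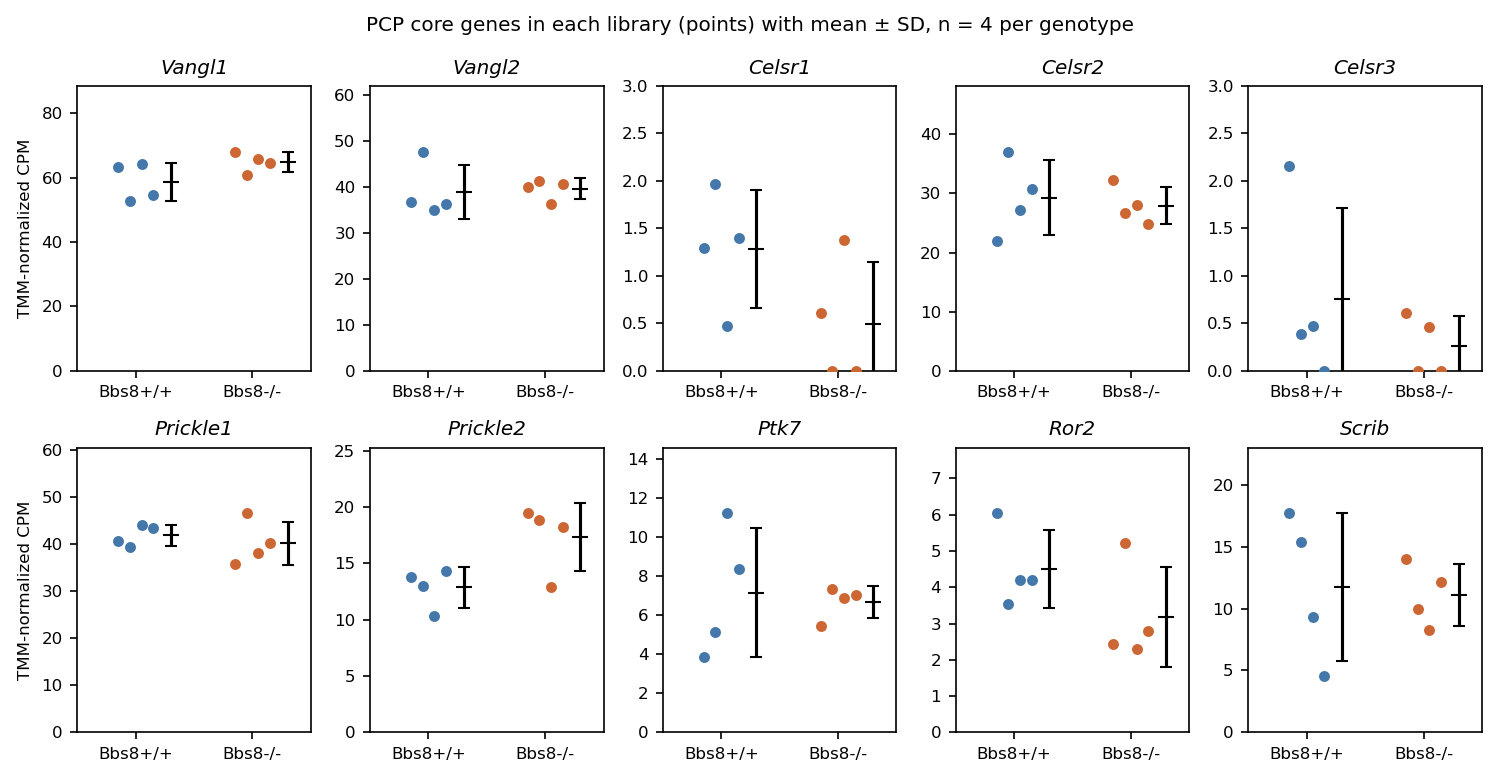
Level of each core PCP gene in TMM-normalized CPM (linear axis from 0, scaled for each gene) in the 4 Bbs8+/+ (blue) and 4 Bbs8-/- (orange) libraries, with the mean ± SD beside each group (n = 4; bars that would pass below 0 end at the axis). The groups overlap for all 10 genes, and Celsr1 and Celsr3 lie at or near 0.

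The levels spanned a wide range. Vangl1 was the highest of the 10 at 58.7 ± 5.89 CPM in Bbs8+/+, followed by Prickle1 at 41.8 ± 2.20 CPM and Vangl2 at 38.9 ± 5.84 CPM, and the last pair did not differ beyond their spread. Celsr2 stood at 29.2 ± 6.31 CPM, and Prickle2 (12.9 ± 1.80 CPM) and Scrib (11.7 ± 5.94 CPM) lay close together below it. Ptk7 (7.16 ± 3.31 CPM) and Ror2 (4.50 ± 1.08 CPM) overlapped in range, and Celsr1 at 1.28 ± 0.619 CPM was near the level of 3 counts. Vangl1 ranked above 80.3% of tested genes by mean level, Celsr2 above 61.7% and Ror2 above 16.9%. The same order of levels held in Bbs8-/- libraries for Vangl1, Prickle1, Vangl2 and Celsr2, at 64.7, 40.2, 39.6 and 27.9 CPM.

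Vangl1 and Vangl2 encode the 4-pass membrane proteins that organise the Vangl-Prickle face of the complex, and both end in a motif through which they bind PDZ domain proteins such as Scrib. To show that short motif, the last 60 coding bases of each gene are given from the GENCODE M21 transcripts (mm10, minus strand for both genes), at chr3:102158237-102158296 for Vangl1 and chr1:172004602-172004661 for Vangl2, in the final coding exon of each. Capitals mark the final 4 codons, which encode the motif, and the stop codon.
Vangl1: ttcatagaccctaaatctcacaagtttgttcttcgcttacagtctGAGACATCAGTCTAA
Vangl2: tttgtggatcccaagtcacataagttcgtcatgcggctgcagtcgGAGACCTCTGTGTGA
The stretches were identical at 40 of 60 positions, and 4 of the 20 differences fell among the 15 capital bases. Over the whole transcripts the longest run that the genes shared was 23 bases, shorter than the 100 base read. An untrimmed read of one could thus not match the other exactly along its full length, and the alignments themselves were not checked.

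Vangl1 (chromosome 3, 102153583 to 102204693, minus strand) was 63.4, 52.8, 64.1 and 54.5 CPM in Bbs8+/+ replicates 1 to 4, and 68.0, 60.7, 65.7 and 64.5 CPM in Bbs8-/- replicates 1 to 4. Bbs8-/- replicates 1, 3 and 4 lay above every Bbs8+/+ library and replicate 2 lay among them. The log2 fold change was 0.14 (SE 0.129; edgeR quasi-likelihood adjusted p 0.710), with a 95% interval from 0.926-fold to 1.32-fold. An antisense gene, Gm16160, shares 8 exonic bases with Vangl1 and had 0 counts in every library.

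Vangl2 (chromosome 1, 172000960 to 172028444, minus strand), the gene mutated in the Looptail mouse, was 36.7, 47.65, 35.1 and 36.4 CPM in Bbs8+/+ and 40.1, 41.3, 36.3 and 40.7 CPM in Bbs8-/- libraries. Bbs8+/+ replicate 2 was the highest of all libraries and stood apart from the other three Bbs8+/+ libraries. Vangl2 gave a log2 fold change of 0.02 (SE 0.159; edgeR quasi-likelihood adjusted p 0.978), with a 95% interval from 0.815-fold to 1.26-fold. Of the reads of both Vangl genes, Vangl1 made up 60.1 ± 5.42% in Bbs8+/+ and 62.0 ± 2.12% in Bbs8-/- libraries (SD, n = 4 each). Vangl1 and Vangl2 together came to 90.9–100.4 CPM in Bbs8+/+ and 102–108 CPM in Bbs8-/- libraries, a narrow gap between ranges that was noticed after the values were seen and was given no test.

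Celsr genes encode atypical cadherins that join neighbouring cells and hold both faces of the PCP complex in register. Celsr2 was the only one of the 3 with more than a few reads. Celsr2 (chromosome 3, 108390851 to 108415552, minus strand) was 22.0, 37.0, 27.1 and 30.8 CPM in Bbs8+/+ and 32.2, 26.7, 28.0 and 24.8 CPM in Bbs8-/- libraries. The lowest and the highest library were both Bbs8+/+, and all Bbs8-/- values fell between them. The log2 fold change was -0.08 (SE 0.188; edgeR quasi-likelihood adjusted p 0.917), with a 95% interval from 0.732-fold to 1.22-fold.

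Celsr1 (chromosome 15, 85898929 to 86033777, minus strand), the member of the family best known for patterning skin and hair follicles, had 3, 5, 1 and 4 counts in Bbs8+/+ and 1, 0, 3 and 0 counts in Bbs8-/- libraries. It entered the test through 3 Bbs8+/+ libraries and 1 Bbs8-/- library at or above 1 CPM, so its passing the filter rested mainly on the group in which it was higher. The fitted log2 fold change was -1.28 (SE 1.09; edgeR quasi-likelihood adjusted p 0.657), with a 95% interval from -3.44 to 0.88 on the log2 scale. By counts alone, 4 reads against 13 gave a depth-scaled ratio of 0.385 with a 95% counting interval of 0.0915 to 1.25. Of the 8 surface epithelium markers, Krt15, Krt13 and Krt6a were the 3 tested, and Krt5, Krt12 and Krt4 were too low to test and at 0 in all Bbs8-/- libraries. In Bbs8-/- libraries Krt13 and Krt6a were also at 0, and Krt15 reached at most 0.607 CPM. Krt14 was at 0 in every library of both genotypes, and Trp63, also too low to test, had means of 0.764 and 0.744 CPM in the control and mutant groups. Their part in the Celsr1 values was not tested. Celsr3 (chromosome 9, 108826320 to 108852969, plus strand), known mainly from axon guidance, had 5, 1, 1 and 0 counts in Bbs8+/+ and 1, 0, 1 and 0 counts in Bbs8-/- libraries and was too low to be tested. With so few reads, neither gene's values set a firm bound on a change in either direction.

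The longest run shared by any pair of Celsr genes was 32 bases, between Celsr1 and Celsr3, and that of Prickle1 and Prickle2 was 19 bases. An untrimmed read of one of these paralogs could thus not match another exactly along its full length either.

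Prickle1 and Prickle2 encode the cytoplasmic LIM domain proteins that bind Vangl. Prickle1 (chromosome 15, 93499114 to 93595891, minus strand) was 40.6, 39.4, 44.0 and 43.4 CPM in Bbs8+/+ and 35.8, 46.5, 38.1 and 40.2 CPM in Bbs8-/- libraries. The Bbs8+/+ values were tightly grouped and lay within the Bbs8-/- range. For Prickle1 the log2 fold change was -0.06 (SE 0.155; edgeR quasi-likelihood adjusted p 0.933), with a 95% interval from 0.778-fold to 1.19-fold.

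Prickle2 (chromosome 6, 92370908 to 92706155, minus strand) had the lowest p of the 9 genes. It was 13.8, 13.0, 10.3 and 14.3 CPM in Bbs8+/+ and 19.4, 18.8, 12.9 and 18.2 CPM in Bbs8-/- libraries. Bbs8-/- replicates 1, 2 and 4 lay above all Bbs8+/+ libraries, whereas Bbs8-/- replicate 3 lay among them. Its log2 fold change was 0.41 (SE 0.253; unadjusted p 0.102 and adjusted p 0.512 by the edgeR quasi-likelihood test), with a 95% interval from 0.942-fold to 1.89-fold. Over the 8 omissions of single libraries, its log2 fold change ran from 0.33 to 0.54. The 0.54 came without Bbs8-/- replicate 3, the library that lay among the controls. Its unadjusted p was 0.0471 and its adjusted p 0.410 by the edgeR quasi-likelihood test. With any other single library left out the unadjusted p was above 0.05, and it was 0.222 without Bbs8+/+ replicate 3 (same test). Prickle2 took 23.5 ± 3.04% of the reads of both Prickle genes in Bbs8+/+ and 30.1 ± 4.18% in Bbs8-/- libraries (SD, n = 4 each), again with overlapping groups.

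Ptk7 and Ror2 encode receptor-like kinases of the pathway, Ptk7 a catalytically inactive one that genetically interacts with Vangl2 and Ror2 a receptor for Wnt5a. Ptk7 (chromosome 17, 46564471 to 46629504, minus strand) was 3.88, 5.12, 11.2 and 8.39 CPM in Bbs8+/+ and 5.47, 7.32, 6.89 and 7.02 CPM in Bbs8-/- libraries. Bbs8+/+ replicates 3 and 4 were the highest and replicates 1 and 2 the lowest of all 8, with the Bbs8-/- libraries between. The log2 fold change was -0.09 (SE 0.382; edgeR quasi-likelihood adjusted p 0.956), with a 95% interval from 0.558-fold to 1.59-fold. Gm26904, a long noncoding RNA gene on the opposite strand that spans Ptk7, had 0 counts in every library.

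Ror2 (chromosome 13, 53109312 to 53286124, minus strand) was 6.04, 3.54, 4.21 and 4.20 CPM in Bbs8+/+ and 2.43, 5.23, 2.30 and 2.81 CPM in Bbs8-/- libraries. Bbs8-/- replicates 1, 3 and 4 lay below every Bbs8+/+ library, and Bbs8-/- replicate 2 was above all Bbs8+/+ libraries but replicate 1. Ror2 had a log2 fold change of -0.49 (SE 0.533; edgeR quasi-likelihood adjusted p 0.777), with a 95% interval from 0.343-fold to 1.48-fold. These values rested on 44 reads in all Bbs8+/+ and 25 in all Bbs8-/- libraries.

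Scrib (chromosome 15, 76047158 to 76069784, minus strand) encodes a PDZ scaffold of the basolateral membrane that binds Vangl2. It was 17.7, 15.4, 9.36 and 4.55 CPM in Bbs8+/+ and 14.0, 9.94, 8.27 and 12.2 CPM in Bbs8-/- libraries. The Bbs8+/+ libraries held both the highest and the lowest values, and their variance was 7.99 times that of counting error, against 1.09 times in Bbs8-/- libraries. The log2 fold change was -0.08 (SE 0.304; edgeR quasi-likelihood adjusted p 0.953), with a 95% interval from 0.623-fold to 1.44-fold. Since the interval rests mostly on pooled dispersion, it does not fully carry the wide spread of the Bbs8+/+ libraries. The sign of the Scrib change turned when single libraries were left out, from -0.37 to 0.19 over the 8 omissions.

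**Figure D2:**
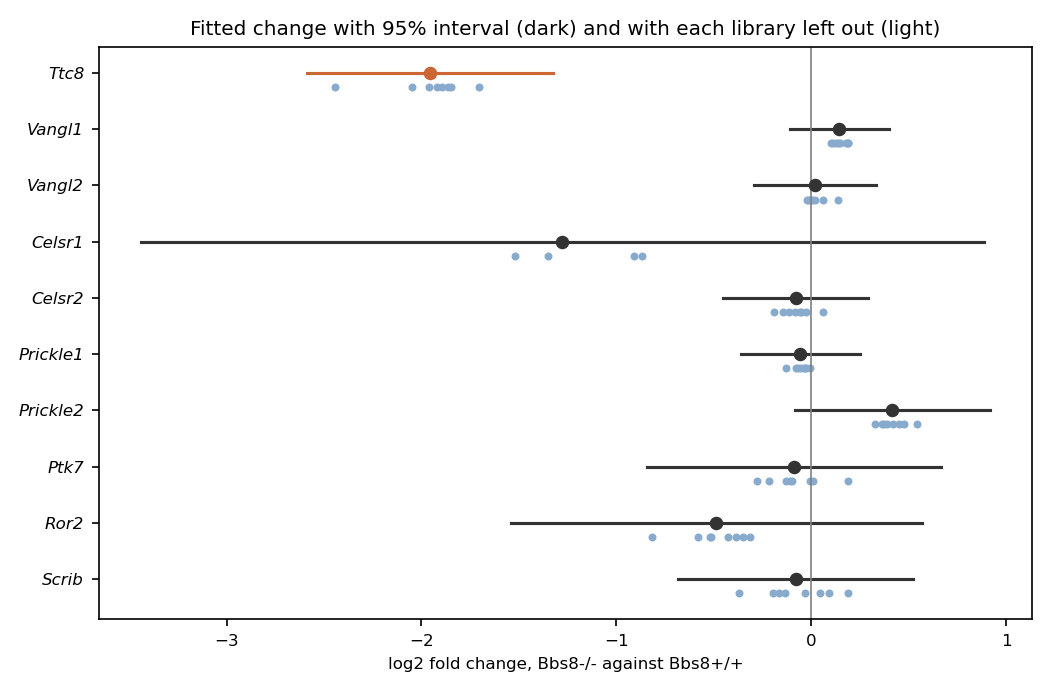
Fitted log2 fold change of Bbs8-/- against Bbs8+/+ (large points) with 95% interval (bars) for the targeted gene Ttc8 (orange) and the 9 core PCP genes tested (dark), and the value with each library left out in turn (small light points; 4 of 8 for Celsr1, which missed the filter in the others). The intervals of all 9 PCP genes cross 0, whereas that of Ttc8 does not, and they are widest for Celsr1 and Ror2.

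The precision followed depth. For Vangl1, Vangl2, Celsr2 and Prickle1, the deepest of the 9, the intervals reached no lower than 0.732-fold and no higher than 1.32-fold. For Prickle2, Ptk7, Scrib and Ror2 they extended to between 1.44-fold and 1.89-fold upward and between 0.343-fold and 0.942-fold downward. The spread between libraries was smaller in Bbs8-/- for 6 of the 10 genes by SD, a comparison that was not tested.

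**Figure D3:**
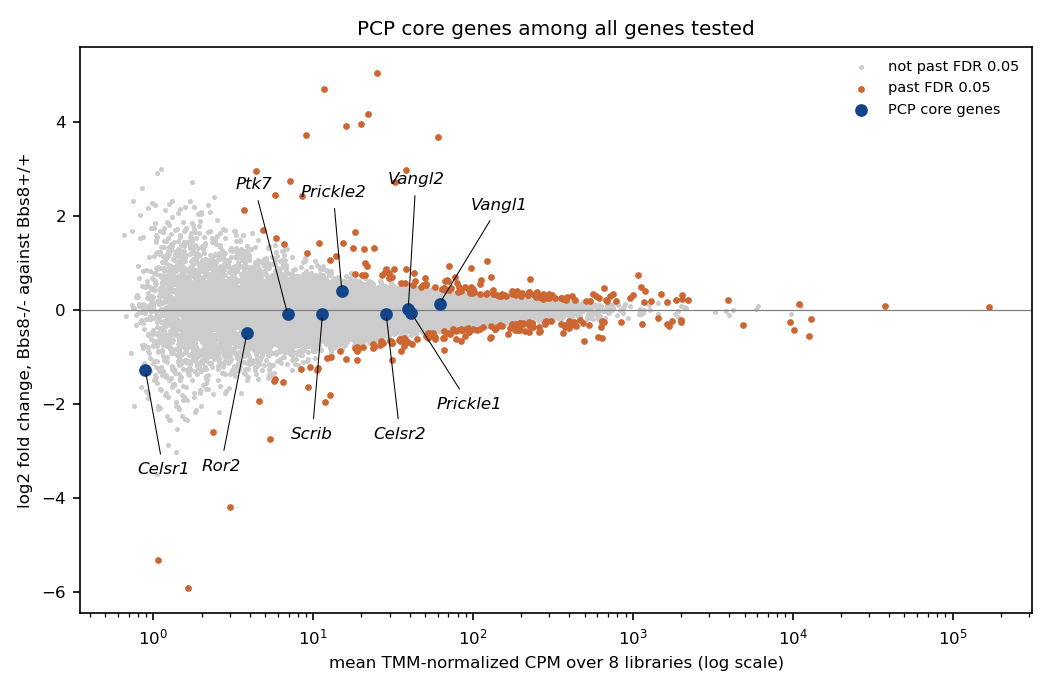
Log2 fold change of Bbs8-/- against Bbs8+/+ against mean level over 8 libraries (log axis, TMM-normalized CPM) for the 13813 genes tested, with genes past FDR 0.05 in orange and the 9 tested core PCP genes in blue. None of the 9 lies among the 309 genes past FDR 0.05, and their log2 fold changes run from -1.28 for Celsr1 to 0.41 for Prickle2.

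To place these genes in their pathway, 47 further PCP genes were read from the same fit by role: ligands, receptors, Dishevelled proteins and partners, ciliary effectors, Fat and Dachsous cadherins, trafficking factors, Scrib partners, cytoskeletal effectors and secreted or co-receptor modulators. 44 were tested and 0 passed FDR 0.05 with edgeR or with DESeq2, the lowest adjusted p by the edgeR quasi-likelihood test being 0.109 for Ryk. An unadjusted p under 0.05 was reached by 7 genes (15.9%, beside 13.0% of all genes tested). Of these, 6 were lower, where 6.60% of all genes were, and 1 was higher, where 6.38% of all genes were. Fitted changes were below 0 for 31 of the 44 (70.5%, beside 50.5% of all genes), with a median log2 fold change of -0.07. Only Wnt5a, Fat4, Dchs2 and Cdc42, 4 of the 44, had all Bbs8-/- libraries on one side of all Bbs8+/+ libraries, as did 7.38% of all genes. The 3 genes too low to test were Wnt11, Wnt9b and Prickle4.

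On the ligand and receptor side, fitted values lay below 0 for 1 of 2 ligands and 5 of 7 receptors tested, and none passed the correction. Wnt5a, the Wnt ligand that acts through Ror2, was 61.7, 53.9, 60.8 and 54.5 CPM in Bbs8+/+ and 48.0, 49.7, 39.5 and 47.7 CPM in Bbs8-/- libraries. All Bbs8-/- values lay below all Bbs8+/+ values, with a log2 fold change of -0.32 (SE 0.140; unadjusted p 0.0229, adjusted p 0.280 by the edgeR quasi-likelihood test). Wnt5b, the other ligand tested, lay above 0, with means of 5.75 and 8.09 CPM and a log2 fold change of 0.49 (edgeR adjusted p 0.644). Wnt11 and Wnt9b, also ligands of the pathway, each had libraries at 0 counts.

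Ryk, a Wnt receptor with an inactive kinase domain, was 86.7, 97.3, 100.1 and 116 CPM in Bbs8+/+ and 86.9, 92.0, 71.7 and 70.6 CPM in Bbs8-/- libraries. The groups overlapped at Bbs8+/+ replicate 1, and the log2 fold change was -0.33 (SE 0.112; unadjusted p 0.00374 by the edgeR quasi-likelihood test). Among the Frizzled receptors, Fzd7 was 28.5, 32.7, 26.7 and 20.3 CPM in Bbs8+/+ and 18.2, 9.94, 21.1 and 20.1 CPM in Bbs8-/- libraries. Only Bbs8-/- replicate 3 lay above the lowest Bbs8+/+ library, and the log2 fold change was -0.63 (SE 0.216; adjusted p 0.120 by the edgeR quasi-likelihood test). Fzd2 had means of 69.8 and 57.2 CPM and a log2 fold change of -0.29 (adjusted p 0.297, same edgeR fit). Fzd3 and Fzd6, the Frizzled genes with the clearest PCP phenotypes in mice, had log2 fold changes of 0.11 and -0.23 (edgeR adjusted p 0.835 and 0.819). Of the remaining receptors, Ror1, a relative of Ror2, lay above 0 at 0.13 and Fzd1 below it at -0.30. Summed over the 7 receptors listed, levels were 256–286 CPM in Bbs8+/+ and 195.5–241 CPM in Bbs8-/- libraries, a description with no test.

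The Dishevelled genes, whose products relay Frizzled signals in the cytoplasm, had fitted values on both sides of 0 and none passed the test. Dvl1 had means of 14.9 and 20.5 CPM in Bbs8+/+ and Bbs8-/- (log2 fold change 0.45, unadjusted p 0.0577 by the edgeR quasi-likelihood test), Dvl2 of 31.5 and 31.4 CPM, and Dvl3 of 27.7 and 22.3 CPM (log2 fold change -0.32, edgeR adjusted p 0.529). Gipc1, a PDZ adaptor that takes part in Vangl2 trafficking, had the one higher fitted value with an unadjusted p under 0.05: it was 21.6, 14.6, 14.0 and 11.5 CPM in Bbs8+/+ and 21.9, 26.7, 16.1 and 21.5 CPM in Bbs8-/- libraries. The groups overlapped, at a log2 fold change of 0.48 (SE 0.235; adjusted p 0.360 by the edgeR quasi-likelihood test). Intu, Fuz and Wdpcp, PCP effectors that act in building cilia, had fitted values below 0 in 3 of 3, and none had an unadjusted p under 0.05.

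Fat4 and Dchs2 belong to the Fat and Dachsous cadherins, a second polarity system that acts beside the core genes. Fat4 was 49.6, 50.4, 54.3 and 61.5 CPM in Bbs8+/+ and 49.2, 38.7, 38.1 and 45.4 CPM in Bbs8-/- libraries, the closest values being 49.6 and 49.2 CPM. Its log2 fold change was -0.34 (SE 0.145; adjusted p 0.266 by the edgeR quasi-likelihood test). Dchs2 had 14, 16, 7 and 7 counts in Bbs8+/+ and 3, 0, 3 and 5 counts in Bbs8-/- libraries, with a fitted log2 fold change of -1.65 (SE 0.658; edgeR adjusted p 0.200). The closest Dchs2 values were 2.45 CPM in Bbs8+/+ and 2.34 CPM in Bbs8-/-, from 7 and 5 reads. Cdc42, a small GTPase of the cytoskeletal arm, had means of 325 and 299 CPM and a log2 fold change of -0.12 (edgeR adjusted p 0.461). Its closest values were 319.0 CPM in Bbs8+/+ and 317.7 CPM in Bbs8-/-. Of the 8 fibroblast and sclera markers, 5 had fitted values below 0 and 3 above 0 in the same libraries. The lower sum of that list was carried by Col1a1 (11717 and 8752 CPM in Bbs8+/+ and Bbs8-/-) and Col1a2 (15122 and 10311 CPM), whereas Dcn had means of 5894 and 6261 CPM with no overlap (log2 fold change 0.09, edgeR adjusted p 0.174). The part of these markers in the Wnt5a, Fzd2, Fzd7, Ryk, Fat4 and Dchs2 values was not tested.

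**Figure D4:**
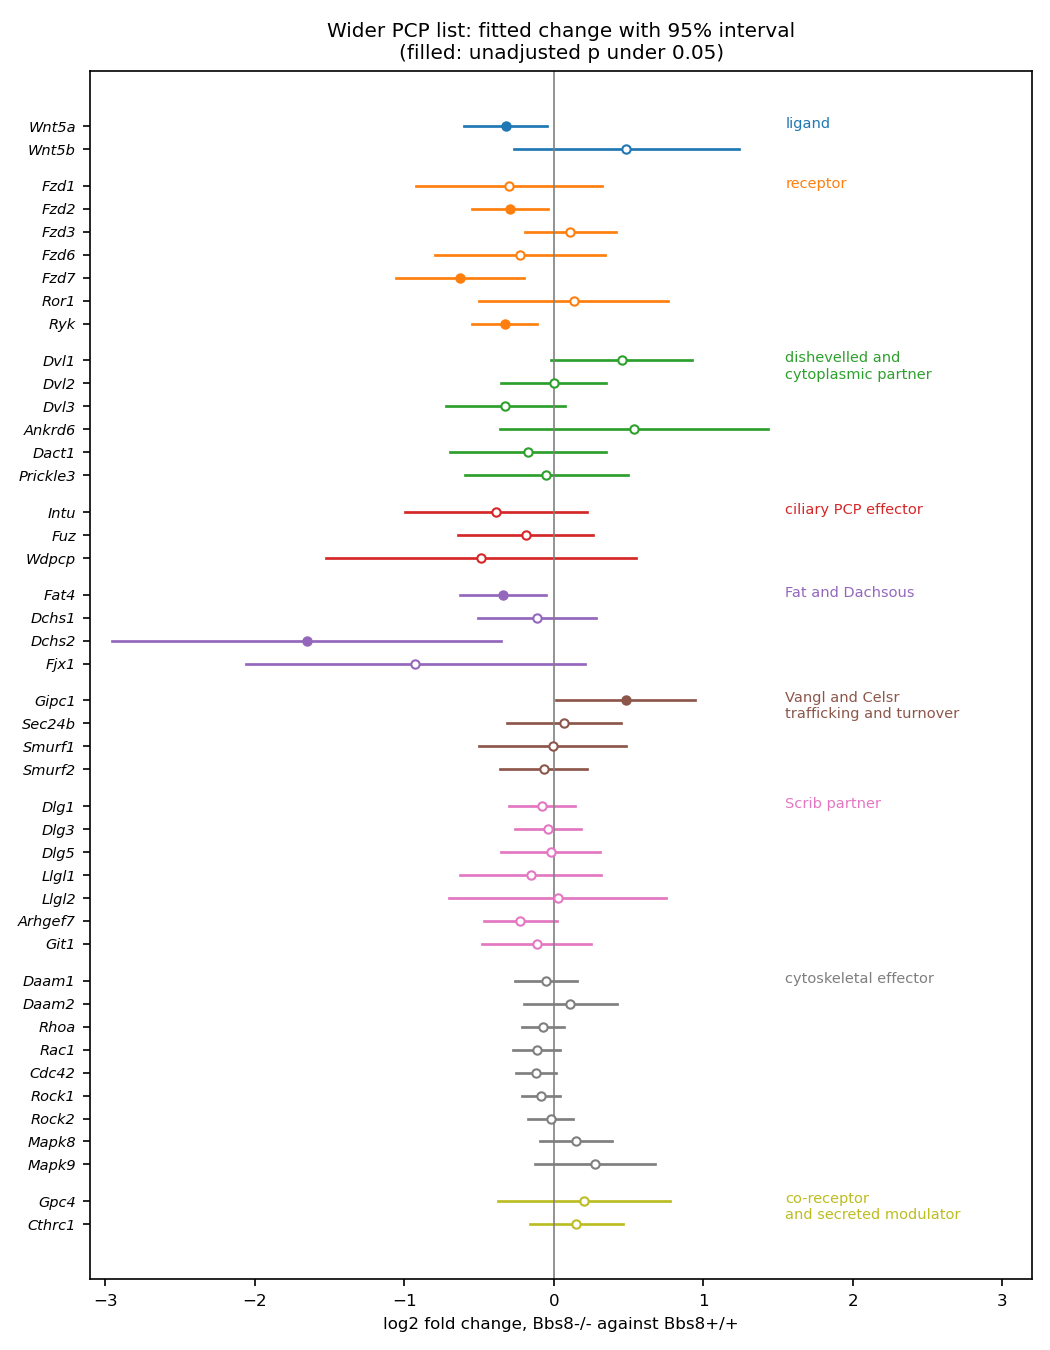
Fitted log2 fold change of Bbs8-/- against Bbs8+/+ with 95% interval for the 44 further PCP genes tested, grouped by role. Filled points mark the 7 genes with an unadjusted p under 0.05, of which 6 lie below 0 and Gipc1 above; none passed FDR 0.05.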

How the data were processed

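QuantSeq 3′ mRNA libraries of 4 Bbs8+/+ and 4 Bbs8-/- eyecup samples were trimmed with BBDuk, aligned to mm10 with STAR and counted per gene with htseq-count by the authors, who deposited raw read counts per Ensembl gene. The strand setting of the counting is not given in the sources used here. Symbols and positions came from GENCODE M21 (31011 of 31053 identifiers matched). Rows for reads outside genes (42.1–44.4% of reads) or ambiguous between genes (0.309–0.323%) were left out of library sizes.

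Genes reaching 1 CPM in 4 or more of the libraries entered the edgeR test (version 4.0.16 in R 4.3.3, TMM, glmQLFit and glmQLFTest on genotype, two-sided), with Benjamini-Hochberg adjustment over all 13813 genes and a threshold of FDR 0.05. Intervals are 95% from the fitted standard error, which edgeR draws from dispersion shared over genes as well as from the gene's own spread. Counting intervals cover counting error only. The members were picked by name and not by their values, but they and the lists were chosen with earlier results of these data known. All 10 core genes are named, with Ttc8, the further PCP genes with an unadjusted p under 0.05 and Wnt5a, Fzd3, Fzd6 and Dvl1 to Dvl3; Cdc42, Wnt5b, Ror1, Fzd1, Wnt11, Wnt9b, Prickle4, Intu, Fuz and Wdpcp were named beside their counts after values were seen. Alternatives were other scalings, filters and tests (DESeq2 1.42.0 included), a replicate block, thinning, and leaving out each library. Libraries were called biological replicates per the labels, each a single animal by the methods; no pair held identical counts. Replicate numbers did not pair the libraries: same-number deviations correlated between -0.05 and 0.02 over 6169 genes.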

Additional observations from a re-analysis of the deposited data

Results flagged for a closer look

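Among 116 groups of 4 libraries examined (Ttc8, the core genes, the tested further PCP genes and their sums), 6 held 1 library far from the rest of its group. Chance flags about 1 in 20 groups, or 5.8 of 116. Vangl2 reached 47.65 CPM in Bbs8+/+ replicate 2, and the other three libraries of that genotype lay between 35.1 and 36.7 CPM. The sum of Vangl1 and Vangl2 was 90.9 CPM in Bbs8+/+ replicate 4 and 99.2 to 100.4 CPM in the rest of that group. The sum of the 7 receptors was 195.5 CPM in Bbs8-/- replicate 4 and 237 to 241 CPM in the rest. Cdc42 was 340.2 CPM in Bbs8+/+ replicate 4 and 319 to 321 CPM in the rest. Wnt5b was 12.4 CPM in Bbs8-/- replicate 3 and 6.28 to 7.02 CPM in the rest, and Ror1 was 12.6 CPM in Bbs8-/- replicate 2 and 8.50 to 9.19 CPM in the rest.

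Reads outside annotated genes, which entered no comparison, took 42.6 ± 0.542% of reads in Bbs8+/+ and 44.3 ± 0.125% in Bbs8-/- libraries (SD, n = 4 each; two-sided exact permutation p 0.0286, the smallest that 4 against 4 allows). Such reads, by construction, add to none of the PCP gene counts.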

How the results depend on the processing

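Under all 18 alternatives, the core genes past the threshold stayed at 0 and so did the further PCP genes, including at FDR 0.1. Over all genes, 114 to 226 were higher and 105 to 224 lower in Bbs8-/-, with 114 to 172 and 105 to 150 when one library was left out. Ttc8 kept its direction and call, from -2.44 to -1.70.

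The sign of 4 uncalled core genes turned. Vangl2 ranged from -0.023 to 0.14 over the omissions, below 0 without Bbs8+/+ replicate 1, 3 or 4. Celsr2 ranged from -0.19 to 0.058, above 0 without Bbs8+/+ replicate 2. Ptk7 ranged from -0.28 to 0.19, above 0 without Bbs8+/+ replicate 3 or 4. Scrib ranged from -0.37 to 0.19, above 0 without Bbs8+/+ replicate 1 or 2 or Bbs8-/- replicate 3, and was 0.0094 with the replicate block and 0.14 with libraries thinned to the smallest total. The causes were not tested. With the replicate block, 134 genes were higher and 129 lower, and it changed no call of a PCP gene. Vangl1, Prickle1, Prickle2, Ror2 and Celsr1 kept their sign in each alternative that gave a value (11 for Celsr1). Depth limits Celsr1, Celsr3, Ror2 and Ptk7 most.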
